A study of Mus musculus with 2 samples.

Results

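Retinal microglia with high counts of immediate early and stress genes made up 278 of 3948 microglia, out of 4456 cells kept and 4520 barcodes in all. They are called stress-high microglia here. A cell was taken as a microglial cell when at least 3 of P2ry12, Tmem119, Cx3cr1, Gpr34, Siglech, Fcrls and Olfml3 had a count. It was taken as stress-high when the summed counts of Atf3, Egr1, Gadd45b, Hmox1 and Dnajb1 per 10000 counts of the cell lay in the top 10% of microglia of both libraries together. Cells in the top 10% for Ccl2, Ccl3 and Ccl4 were left out, which removed 117 of the 395 score-high cells. The score cut was 27.0 per 10000. The lowest members scored 27.05 and 27.24 and the highest cells left outside scored 26.98 and 26.97, and 163 microglia, 46 of them members, lay within 10% of the cut. The members are therefore an upper range of the score that the rule set. Close scores on either side are found around any such percentile cut. Whether the members are a cell type of their own was not tested.

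The study compared CD45-sorted immune cells from the retinas of Igfbpl1 knockout and wildtype C57BL/6 mice. The design text names 10 mice per genotype of 8 to 10 months, matched for sex and perfused before the retinas were digested with collagenase/dispase, papain and DNase for 1 h at 37 °C. Each genotype is 1 droplet library of 3′ ends, and no map from cells to mice is used here, so each group counts as 1 sample and no difference between the libraries has a replicate check. The report therefore holds no p-values, and every interval covers counting error only at 95%. Members numbered 170 in the library labelled wildtype, with 927664 counts, and 108 in the library labelled knockout, with 682560 counts. Their median depth was 4705 and 5612 counts per cell, against 3976 and 4319 in the other microglia. The libraries shared 1 barcode, and it was not a member. Igfbpl1 itself had 0 counts in the members of the library labelled wildtype. The upper end of its counting interval was 3.98 CPM (counts of the gene per 1000000 counts). It had 4 counts in 4 cells, 5.86 CPM, in the members of the library labelled knockout. In the other microglia it had 1 and 25 counts. These values go against the labels. Where the deletion lies relative to the sequenced 3′ end is not given in the sources used here, so the libraries are named by label throughout.

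Immediate early genes are transcribed within minutes of a stimulus from factors already present in the cell, and many of them encode transcription factors of the Fos, Jun and Egr families. Their products are followed by feedback regulators that shorten the response, such as phosphatases of MAP kinases and inhibitors of NF-kB. Heat shock genes respond to misfolded protein and antioxidant genes to oxidants and heme. Tissue digestion at warm temperature is known to raise both immediate early and heat shock genes in microglia, and it was part of the preparation of both libraries.

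Promoter windows of 5 genes are shown because the members were chosen by, or stood out in, these genes. Each runs from 250 bases before to 50 bases after a start site in RefSeq on GRCm38.p6, written 5′ to 3′ on the gene's strand. Capitals mark letters that match a searched motif on either strand. The letters searched were TGANTCA for AP-1, TGACGTCA for the cyclic AMP response element (CRE), GAANNTTC for heat shock factor, TGACNNNGC for the antioxidant response element, GCGNGGGCG for Egr factors, and the CArG box of serum response factor. Of the 5 score genes, 3 had a window that could be used, and Hmox1 had none.
Atf3, chr1:191183284-191183583, minus strand: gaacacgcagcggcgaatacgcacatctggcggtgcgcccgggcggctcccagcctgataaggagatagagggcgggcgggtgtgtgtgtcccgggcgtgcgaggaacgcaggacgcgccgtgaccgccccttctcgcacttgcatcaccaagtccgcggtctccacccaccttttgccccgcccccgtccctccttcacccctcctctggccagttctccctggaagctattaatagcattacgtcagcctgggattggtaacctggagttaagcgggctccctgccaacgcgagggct
Gadd45b, chr10:80929841-80930140, plus strand: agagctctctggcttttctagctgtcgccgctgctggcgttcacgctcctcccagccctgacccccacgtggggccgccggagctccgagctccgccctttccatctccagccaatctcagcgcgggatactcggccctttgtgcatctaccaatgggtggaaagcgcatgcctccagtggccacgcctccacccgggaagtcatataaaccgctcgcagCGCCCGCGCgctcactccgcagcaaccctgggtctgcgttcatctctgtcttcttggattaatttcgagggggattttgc
Dnajb1, chr8:83607925-83608224, plus strand: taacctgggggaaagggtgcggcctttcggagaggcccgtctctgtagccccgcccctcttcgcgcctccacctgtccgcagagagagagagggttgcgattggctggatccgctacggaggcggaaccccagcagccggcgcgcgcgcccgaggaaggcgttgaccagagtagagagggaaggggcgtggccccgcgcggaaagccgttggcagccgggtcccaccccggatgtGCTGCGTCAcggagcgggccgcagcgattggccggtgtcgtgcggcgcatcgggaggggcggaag
Hspa1a, chr17:34972107-34972406, minus strand: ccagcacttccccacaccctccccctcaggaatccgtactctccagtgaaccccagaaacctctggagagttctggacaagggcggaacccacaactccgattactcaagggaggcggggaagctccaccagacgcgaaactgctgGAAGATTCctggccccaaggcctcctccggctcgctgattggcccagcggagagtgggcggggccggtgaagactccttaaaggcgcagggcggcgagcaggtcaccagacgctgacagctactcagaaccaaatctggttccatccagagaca
Dusp1, chr17:26508423-26508722, minus strand: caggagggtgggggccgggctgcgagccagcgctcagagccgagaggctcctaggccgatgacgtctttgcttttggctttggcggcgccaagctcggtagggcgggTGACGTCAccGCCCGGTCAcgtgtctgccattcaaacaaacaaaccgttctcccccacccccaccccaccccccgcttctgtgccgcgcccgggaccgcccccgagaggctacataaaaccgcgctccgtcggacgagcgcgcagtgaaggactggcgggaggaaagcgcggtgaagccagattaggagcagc

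The Gadd45b window held an Egr match 30 to 22 bases before the start site, the Dnajb1 window shown an antioxidant response match, and the Atf3 window no match to these letters. Another Dnajb1 window, not shown, held no match. Heat shock letters were in the windows of 11 of 16 chaperone genes that had one, Hspa1a, Hspa1b and Hsph1 among them, against 9.04% of all 27025 genes with a window (7.86% of all 32851 windows). Of the 18 immediate early genes with a window, 8 had Egr letters, Nr4a1, Klf4 and Fosb included, against 6.27% of all genes, 7 had antioxidant response letters, against 14.0%, 2 had heat shock letters, and 1 each had AP-1, CRE and CArG letters. Among all genes 8.97% had AP-1, 2.03% CRE and 1.81% CArG letters. Of 15 antioxidant and iron genes 7 had antioxidant response letters, about as large a share as among the immediate early genes, and 4 each had AP-1 and Egr letters. A match is a description of letters and does not show that a factor is bound there.

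The score genes show what the rule selected and are given with no test. Atf3, a stress-induced repressor and activator of transcription, stood at 1255 CPM in the members of the library labelled wildtype and 1853 CPM in those of the library labelled knockout, against 239 and 290 CPM in the other microglia. Egr1, an immediate early zinc finger factor, stood at 1675 and 2004 CPM, against 453 and 441. Dnajb1, a heat shock protein 40 co-chaperone, stood at 789 and 1160 CPM, against 193 and 163. Hmox1, which breaks down heme, stood at 369 and 662 CPM, against 127 and 109, and Gadd45b, a growth arrest and stress signalling gene, at 329 and 443 CPM, against 63.8 and 67.8. In these sums all 5 genes were thus higher in the members of both libraries, which the rule favours because each gene is part of the score. All 5 were higher in the members labelled knockout than in those labelled wildtype.

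Members varied in how many score genes they held. Of the 278, 6 had a count of 1 score gene only, 39 of 2, 80 of 3, 90 of 4 and 63 of all 5, where 1 count was enough. When the score was rebuilt from the other 4 genes, the gene left out was still higher in the cells so chosen than in the other microglia. The ratio for the left-out gene ran from 1.92 for Hmox1 to 3.34 for Gadd45b in the library labelled wildtype, and from 3.09 for Egr1 to 5.20 for Hmox1 in the library labelled knockout. The libraries held close shares of members, 7.04% of microglia (exact binomial interval 6.05 to 8.13) and 7.05% (5.82 to 8.44), under 1 cut for both. Their scores were spread differently. The median member score was 37.6 in the library labelled wildtype and 43.9 in the library labelled knockout, the upper quartile 48.0 and 76.7, and the highest 149 and 221.4.

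**Figure D1:**
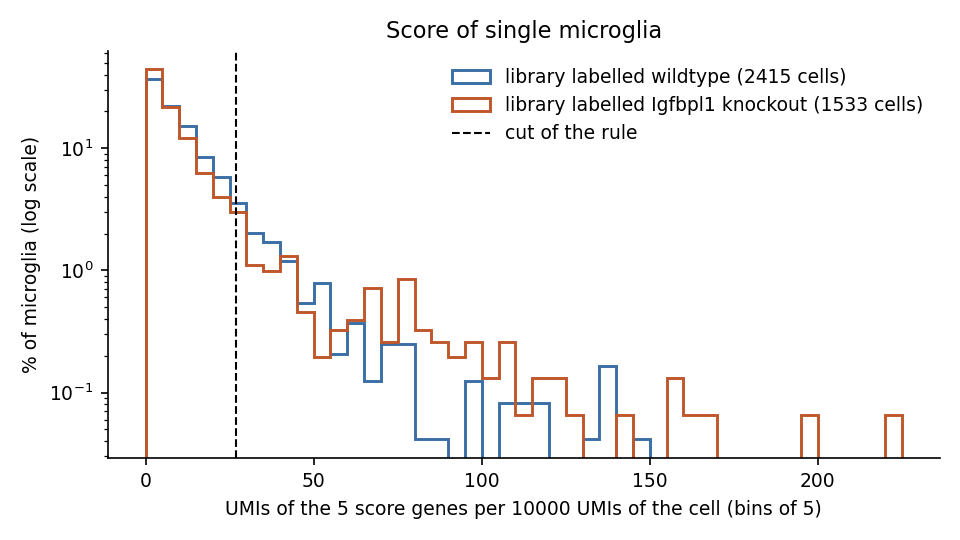
Share of microglia, in % on a log scale, by summed counts of the 5 score genes per 10000 counts of the cell, for each library; the dashed line is the cut at 27.0. The library labelled knockout has fewer cells just past the cut and more at high scores, with an upper quartile among members of 76.7 against 48.0.

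Outside the genes of the rule, 18 of 3266 genes at 50 CPM or more in members or other microglia were at least 2-fold higher in the members than in the other microglia in both libraries, which is 0.551% of genes tested, and 0 of 3266 were at least 2-fold lower (0.0%). Among the 18 were Fos, Ier2, Nfkbia, Nfkbiz, Sqstm1, Ddit3 and Cdkn1a, but also Gdf15, Lgals3 and Vim. The single cell with most counts of the gene held 544 of 549 Gdf15 counts, 87 of 116 Lgals3 counts and 9 of 50 Vim counts of members labelled wildtype. Under the knockout label it held 64 of 84 Gdf15 counts, 332 of 454 Lgals3 counts and 151 of 193 Vim counts. Leaving out the cell with most counts of each gene, with totals kept, gave 8 higher and 2 lower genes. That step takes a larger share from the members, which are fewer, and so tends to lower their ratios. For P2ry12 the cell left out held 3.70% of counts in members labelled wildtype and 0.212% in the other microglia. How much of the change came from the step itself was not tested. Scoring cells thinned to 1000 counts gave 2 higher genes. Since all genes come from the cells that the rule chose, this contrast is a description. Of the 24 immediate early factors listed, 18 were at 20 CPM or more in the library labelled wildtype, and 13 of them were at least 1.5-fold higher in the members. In the library labelled knockout 19 of 21 were. All genes passed that fold in 4.6% and 8.07% of cases. The list's median log2 ratio was 0.75 and 1.47, against -0.01 and -0.03 over all genes.

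Fos, which pairs with Jun proteins to form AP-1, stood at 2370 CPM in the members labelled wildtype and 3285 CPM in those labelled knockout, against 1173 and 951 CPM in the other microglia. Its ratio was 2.02 (counting interval 1.93 to 2.12) and 3.46 (3.29 to 3.63), and 87.1% and 90.7% of members had a Fos count. Ier2, a short-lived nuclear immediate early protein, stood at 1005 and 1096 CPM, against 485 and 397. The most abundant factor of the list was Jun, at 5360 and 5472 CPM against 3762 and 2804, a ratio of 1.43 and 1.95. Junb was 1.80-fold and 2.51-fold higher, Fosb 1.96-fold and 2.85-fold, and Klf4 1.90-fold and 2.94-fold. Among less abundant factors, Egr3 and Nr4a1, an orphan nuclear receptor, were 1.67-fold and 1.54-fold higher under the wildtype label and 5.75-fold and 4.23-fold higher under the knockout label, but 1 cell held 47.9% of the Egr3 counts of the members labelled knockout. Klf10 was not higher in both libraries, with ratios of 0.81 and 1.18.

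After each cell was thinned to 1000 counts, a Fos count was found in 72.0% and 81.0% of members and in 42.4% and 34.7% of other microglia. Cells of retinal neuron and glia markers gave 39.0% and 30.9%. These are kept cells with counts of at least 3 rod, cone, bipolar, amacrine, Müller glia or astrocyte markers. They had counts of fewer than 3 of the microglia genes of the rule. For Hmox1 the thinned shares were 23.8% and 28.6% in members, 8.89% and 8.54% in other microglia, and 0.0% and 4.41% in the retinal neuron and glia cells. Hmox1 is a score gene, so the rule itself favours its higher share in members, which is no separate result. The thinning left out 5 members below 1000 counts.

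**Figure D2:**
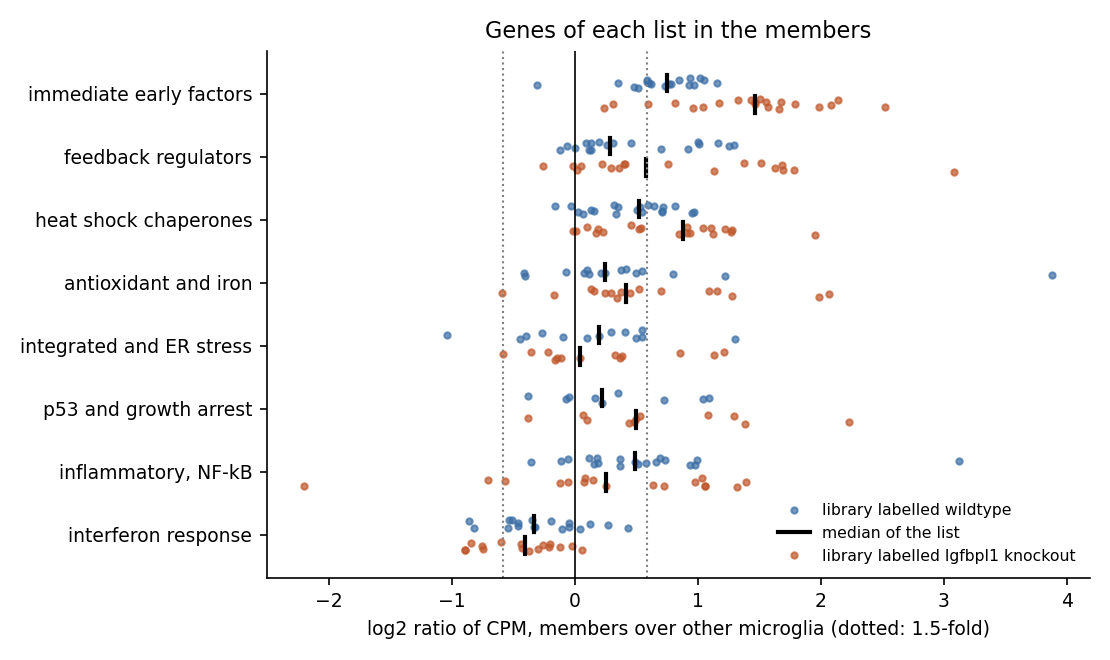
Log2 ratio of CPM in the members over the other microglia for each gene of 8 lists at 20 CPM or more, by library; black bars are list medians and dotted lines mark 1.5-fold. The immediate early factors have the highest medians, 0.75 and 1.47, and the interferon response list has medians below 0.

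Feedback regulators were split. Of 18 measured in each library, 7 and 9 were at least 1.5-fold higher, against 4.6% and 8.07% of all genes. At least 1.5-fold lower were 0, against 3.04% and 6.51%. The median log2 ratios were 0.28 and 0.58. Nfkbia, the inhibitor that holds NF-kB in the cytoplasm, stood at 2044 and 2034 CPM against 911 and 631, ratios of 2.24 (2.13 to 2.36) and 3.22 (3.03 to 3.43). Nfkbiz, a nuclear member of the same inhibitor family, was 2.38-fold and 3.43-fold higher. Among the MAP kinase phosphatases, Dusp1 stood at 777 and 963 CPM against 387 and 312 and Dusp2 at 111 and 99.6 CPM against 45.4 and 30.8, while Dusp6 had ratios of 1.00 and 0.84. Socs3, which damps cytokine receptor signalling, was 2.01-fold and 2.60-fold higher, and Zfp36, which destabilises cytokine mRNAs, 1.89-fold and 2.86-fold. Rgs2 and Rhob stayed within 1.2-fold of the other microglia in both libraries.

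Inducible chaperones were higher as well. Of 20 heat shock and chaperone genes measured, 8 and 11 were at least 1.5-fold higher, against 4.6% and 8.07% of all genes. Lower by that much were 0, against 3.04% and 6.51%. The medians were 0.52 and 0.88. Hspa1a and Hspa1b, the inducible 70 kDa chaperones, are near-identical copies whose reads may be split between them. Hspa1a stood at 4001 and 4927 CPM against 2062 and 2044, and Hspa1b at 4115 and 5850 CPM against 2333 and 2413. Hsph1, a nucleotide exchange factor for those chaperones, had the largest ratios, 1.96 (1.58 to 2.41) and 3.88 (3.19 to 4.69). Hsp90aa1 was 1.64-fold and 2.33-fold higher. The co-chaperones Ahsa1, with ratios of 1.05 and 1.01, and Dnajb6, with 1.02 and 0.99, were level.

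Fewer genes of the antioxidant and iron list stood out. Of 15 and 16 measured, 3 and 6 were at least 1.5-fold higher, against 4.6% and 8.07% of all genes. Lower by that much were 0 and 1, against 3.04% and 6.51%. The list medians were 0.24 and 0.41. The sign of these medians was not stable. They were -0.05 and 0.09 without the cell with most counts of each gene, a step that by itself tends to lower them. With at least 5 microglia genes required of a cell they were -0.0071 and -0.10. In the library labelled wildtype the median also turned with the top 5% (-0.03) and with the score on thinned cells (-0.11). Sqstm1, the autophagy receptor p62, stood at 305 and 275 CPM against 131 and 114, although 1 cell held 36.4% of its counts in the members labelled wildtype. Srxn1, which repairs peroxiredoxins, had all its counts there in 1 cell and 81.2% of them in 1 cell under the knockout label. Fth1, the heavy chain of ferritin, was 1.18-fold and 1.44-fold higher at 7808 and 9728 CPM, and Slc40a1, the iron exporter, had ratios of 0.75 and 0.66.

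Integrated and endoplasmic reticulum stress genes did not move together. Of 13 measured in each library, 1 and 3 were at least 1.5-fold higher, against 4.6% and 8.07% of all genes, and 1 was lower by that much in each, against 3.04% and 6.51%. Ddit3, the stress factor CHOP, stood at 102 and 104 CPM against 41.4 and 47.5. Ppp1r15a, which restores translation after stress, was 1.41-fold and 2.32-fold higher. The endoplasmic reticulum genes Sdf2l1, at 0.76 and 0.67, and Manf, at 0.73 and 0.86, were on the other side. In the p53 and growth arrest list 3 of 9 and 4 of 11 were at least 1.5-fold higher, Cdkn1a, the cell cycle inhibitor p21, at 97.0 and 154 CPM against 47.0 and 59.1.

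Members still held chemokine counts below the chemokine cut. Ccl2 stood at 515 and 312 CPM in them, Ccl3 at 1520 and 1468 and Ccl4 at 1768 and 1808. Other microglia had 272 and 217, 1468 and 1489, and 2688 and 2241 CPM. Microglia in neither top range had 178 and 158, 975 and 910, and 1553 and 1192 CPM. Although chemokine-high cells had been removed, part of the inflammatory list was higher, 7 of 19 and 8 of 17 genes by at least 1.5-fold. Of all genes 4.6% and 8.07% were. Lower by that much were 0 and 2, against 3.04% and 6.51% of all genes. Cd83, an activation marker, stood at 354 and 517 CPM against 179 and 208, Tnf, an inflammatory cytokine, at 417 and 377 CPM against 219 and 181, and Il1a at 262 and 280 CPM against 162 and 134. Interferon response genes were lower in members: 0 of 18 and 0 of 16 were at least 1.5-fold higher, 2 and 6 were lower by that much, against 3.04% and 6.51% of all genes, and the medians were -0.33 and -0.40. Other microglia include the chemokine-high cells, and against microglia in neither top range 0 of 18 and 5 of 16 were lower by that much, with medians of -0.11 and -0.42. With chemokine-high cells kept among the members, the median in the library labelled wildtype turned to 0.19. Ifit3, an interferon-induced antiviral protein, stood at 71.2 and 49.8 CPM against 129 and 83.9. Other homeostatic microglial genes were slightly lower, with medians of -0.17 and -0.30 over 22 genes. Cst3, a cystatin, was the lowest of them at 0.78 and 0.66, and Jun, which is on this list too, was the highest. Of the genes in the rule, P2ry12, a purinergic receptor of resting microglia, stood at 1371 and 1075 CPM in members against 1669 and 1582, and 97.1% and 86.1% of members had a P2ry12 count. In cells of retinal neuron and glia markers the thinned share with a P2ry12 count was 1.22% and 2.94%, against 68.5% and 61.0% of members. P2ry12 is 1 of the microglia genes that members had to hold and those cells had to lack in part. The selection thus favours this contrast, which is no separate result.

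The immediate early genes followed the score through its whole range. Microglia were put in 4 bins: a score of 0, a low and a middle bin split at the median of the scores in between, and a top bin of all 395 score-high cells, chemokine-high ones included. Of 16 immediate early factors measured, 15 were higher in each successive bin in both libraries, against 215 of 3266 genes (6.58%). For the heat shock list 11 of 19 were, for the feedback regulators 9 of 17, and for the interferon list 0 of 13. Fos stood at 367, 996, 1397 and 2550 CPM from the lowest to the top bin in the library labelled wildtype and at 277, 730, 1171 and 3389 CPM in the library labelled knockout. Hspa1a stood at 717, 1680, 2424 and 4600 CPM and at 603, 1627, 2750 and 5039 CPM. P2ry12 was instead highest in the low bin, at 1751 and 1683 CPM, and lowest in the top bin, at 1326 and 1111 CPM. Cells with a score of 0 were shallow, with a median of 1832 and 2027 counts against 4258 and 4778 in the low bin, and the part of depth in the step between these bins was not tested.

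**Figure D3:**
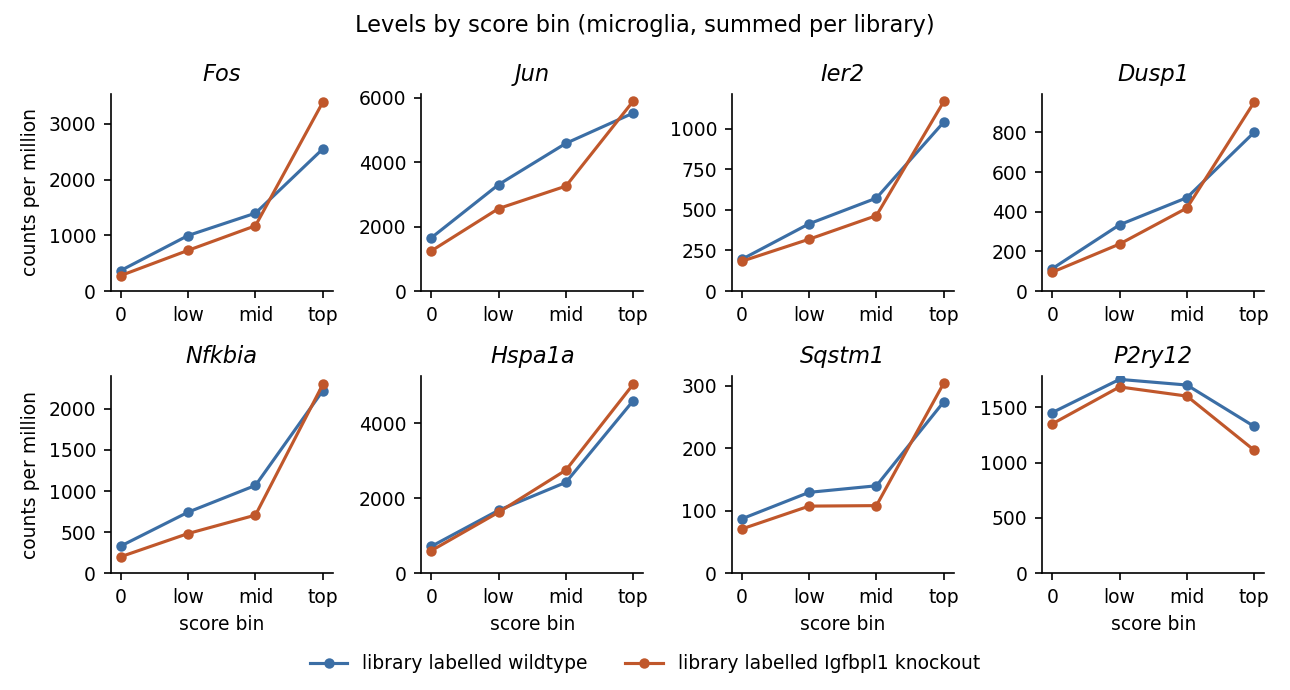
Summed level in CPM of 8 genes in microglia of the 4 score bins (0, low, middle, top), by library. Fos, Jun, Ier2, Dusp1, Nfkbia, Hspa1a and Sqstm1 are higher in each successive bin of both libraries, while P2ry12 is lowest in the top bin.

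Members differed in which score gene led. Egr1 had the most counts of the 5 in 78 of 170 members labelled wildtype and 42 of 108 labelled knockout, Atf3 in 40 and 28, Dnajb1 in 27 and 27, Hmox1 in 6 and 4 and Gadd45b in 6 and 2, with ties in 13 and 5. Dnajb1-led cells were thus 15.9% (exact binomial interval 10.7 to 22.3%) of members labelled wildtype, and for the 27 of 108 labelled knockout the interval was 17.2 to 34.3%. Each group was compared with the other members of its library. At least 2-fold higher in both libraries were 20 of 3430 genes in Atf3-led cells (0.583%), 2 of 3450 in Egr1-led cells (0.058%) and 24 of 3441 in Dnajb1-led cells (0.697%). At least 2-fold lower were 13 (0.379%), 28 (0.812%) and 23 (0.668%). Without the members that carried at least 3 of Spp1, Gpnmb, Fabp5 and Lgals3 or at least 3 border macrophage markers, which were set apart after seeing the data, the higher counts became 8, 4 and 22 and the lower counts 10, 10 and 15. Of the 20, 2 and 24 genes higher before, 5, 1 and 11 were still called, and of the 13, 28 and 23 lower before, 6, 8 and 8 were.

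Dnajb1-led cells were higher in the other chaperones: 9 and 8 of 20 were at least 1.5-fold above the other members, and 0 and 2 were below by that much, against 21.2% and 20.6% of all genes above, with medians of 0.43 and 0.47 that became 0.30 and 0.42 without the cells set apart. Hspa1b stood at 8145 and 8366 CPM in them against 3507 and 5301 in other members, and Hsph1 at 263 and 335 CPM against 96.8 and 200. Hsp90aa1 had ratios of 0.67 and 1.87, so its direction differed between the libraries. MHC class II genes were also higher there, H2-Ab1 at 724 and 703 CPM against 143 and 51.8, but 3 of 27 Dnajb1-led cells in each library carried at least 3 border macrophage markers. Without the cells set apart the class II median was -0.13 and 3.51.

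Atf3-led cells were higher in antioxidant and iron genes, 11 of 17 and 12 of 16 by at least 1.5-fold, against 14.1% and 16.6% of all genes, with medians of 0.90 and 1.07. Fth1 stood at 11640 and 13430 CPM against 6246 and 7611, and Blvrb, a biliverdin reductase, at 257 and 270 CPM against 78.9 and 64.5. These values rested partly on few cells. A single cell held 38.8% and 31.6% of the Fth1 counts of the group and 56.5% and 37.3% of the Blvrb counts. Without the cells set apart the list's median was -0.08 in the library labelled wildtype and 0.72 in the library labelled knockout, so the list was not higher in the former. Under the wildtype label 11 of 11 cell cycle genes were 1.5-fold higher and 12 of 18 interferon genes lower, against 14.1% and 16.2% of all genes. Their medians were 2.59 and -1.29, or 2.82 and -1.22 without the cells set apart. Under the knockout label 3 of 5 and 6 of 16 passed, against 16.6% and 23.1%, with medians of 0.64 and -0.14. How many cells carried these genes was not tested. Egr1-led cells were lower in antioxidant and iron genes, 9 of 16 and 10 of 16 by at least 1.5-fold, against 12.3% and 14.6% of all genes. Outside that list, Apoe stood at 2219 and 376 CPM in them against 9559 and 22830 in other members. Cd74, an MHC class II list gene, stood at 99.5 and 76.8 CPM against 1160 and 724. Without the cells set apart the ratio was 0.34 and 0.044 for Apoe and 0.80 and 0.14 for Cd74. The antioxidant and iron median of Egr1-led cells went from -0.70 and -0.84 to -0.07 and -0.49, and the class II median from -3.21 and -2.48 to -0.08 and -1.92, so little difference was left in the library labelled wildtype for these lists. There 7 of 9 cell cycle genes were at least 1.5-fold lower in Egr1-led cells and 9 of 18 interferon genes higher. The shares of all genes were 12.3% and 13.7%. Medians were -1.68 and 0.59, or -1.79 and 0.57 without the cells set apart. Under the knockout label 1 of 5 and 2 of 16 passed, against 14.6% and 25.2%, with medians of 0.18 and -0.07.

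**Figure D4:**
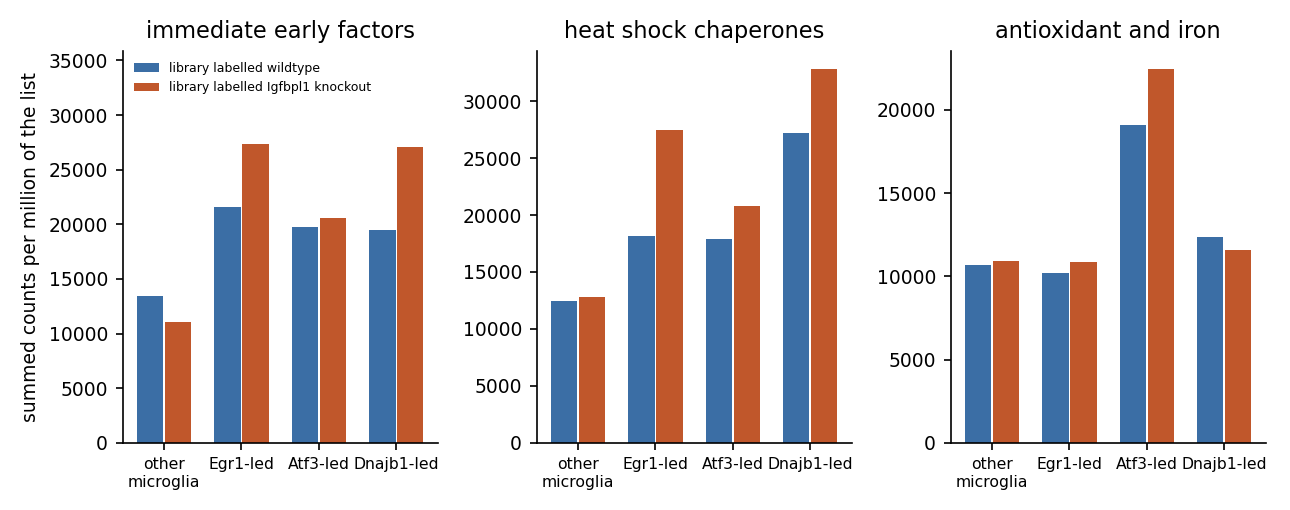
Summed CPM of the immediate early, heat shock and antioxidant and iron lists in other microglia and in Egr1-led, Atf3-led and Dnajb1-led members, by library, with bars from 0. Of the groups drawn, chaperone sums are highest in Dnajb1-led cells and antioxidant and iron sums in Atf3-led cells, where 1 cell holds 38.8% and 31.6% of the Fth1 counts. Without the cells set apart, the median of that list in Atf3-led cells labelled wildtype was -0.08. Not drawn are 6 Hmox1-led cells labelled wildtype, with a chaperone sum of 28040 CPM against 27230 in Dnajb1-led cells. Also not drawn are 2 Gadd45b-led cells labelled knockout, with an antioxidant and iron sum of 51400 CPM.

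Few genes set stress-high apart from chemokine-high microglia by the fold used. Compared with all 253 and 142 chemokine-high microglia, 5 of 3281 genes were at least 2-fold higher in the stress-high cells of both libraries (0.152%) and 1 was at least 2-fold lower (0.0305%). The higher ones were Gdf15, Lgals3, Vim, Spp1 and Fabp5, and few cells carried much of them. For Spp1, 1 cell held 9 of 10 counts of the members labelled wildtype and 202 of 222 of those labelled knockout. Without cells with at least 3 of Spp1, Gpnmb, Fabp5 and Lgals3, 2 genes were called higher, and the Spp1 log2 ratio under the knockout label was -4.55. The removal used Spp1 itself, so this fall is no separate result. Such cells held 221 of the 222 Spp1 counts of members labelled knockout, and 1.62 CPM was left without them. The lower one was Cxcl10, an interferon-induced chemokine, at 278 and 46.9 CPM against 728 and 208. Il1b stood at 124 and 119 CPM against 214 and 268. For the immediate early factors 0 of 18 and 8 of 21 were at least 1.5-fold higher than in chemokine-high cells, against 6.69% and 9.26% of all genes, with medians of 0.11 and 0.37. Relative to chemokine-high cells, interferon response genes stood lower by 1.5-fold or more for 15 of 18 in the library labelled wildtype and 2 of 15 in the library labelled knockout, against 6.13% and 10.6% of all genes. The 117 cells in both top ranges, 28.9% and 30.8% of score-high cells, count among the chemokine-high cells here. They are 69 of the 253 and 48 of the 142 chemokine-high cells. Since they pass the same score cut as the members, they tend to make the 2 groups more alike. Members were not compared over all genes with the chemokine-high cells below the score cut.

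Between the libraries, members labelled knockout were at least 2-fold above those labelled wildtype for 37 of 3364 genes (1.1%) and at least 2-fold below for 36 (1.07%). In other microglia 5 (0.156%) and 3 (0.0938%) of 3199 genes passed, but those sums hold 9321492 and 6400201 counts, far more than in the members, so the numbers of calls cannot be compared. With the single cell that held most counts of each gene left out, 28 of the 37 and 32 of the 36 were still past the fold. Totals were kept, and this takes more from the smaller group, the members labelled knockout, so it tends to lower these ratios. Of the 21 immediate early factors measured in members, 19 had a ratio above 1 and 7 were at least 1.5-fold higher under the knockout label, against 8.69% of all genes, with a median log2 ratio of 0.44. In other microglia 3 of 16 had a ratio above 1, 0 reached 1.5-fold (0.641% of all genes did), and the median was -0.23. Nr4a1 stood at 37.7 CPM in members labelled wildtype and 120 CPM in those labelled knockout, a ratio of 3.18 (2.12 to 4.88), against 1.16 in other microglia. Fos had a ratio of 1.39 (1.31 to 1.47) in members and 0.81 in other microglia, and Jun 1.02 and 0.75. The members labelled knockout also had the higher scores, given above, and the part of that in these ratios was not tested.

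Of the 20 chaperones, 4 were at least 1.5-fold higher under the knockout label in members, against 8.69% of all genes. Lower by that much were 0, against 10.8% of all genes. Their median was 0.34, against -0.05 over all genes. In other microglia 0 reached 1.5-fold and the median was 0.07. Hsph1 had a ratio of 1.89 (1.47 to 2.44) in members and 0.96 in other microglia, and Hspe1, the mitochondrial 10 kDa chaperonin, 1.58 and 1.07. The inflammatory list had 5 of 19 above 1 and a median of -0.15. Cxcl2, a neutrophil-attracting chemokine, stood at 180 CPM in members labelled wildtype, from 12 cells, and at 16.1 CPM in those labelled knockout. Cxcl10 stood at 278 and 46.9 CPM, a ratio of 0.17, against 0.29 in other microglia.

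**Figure D5:**
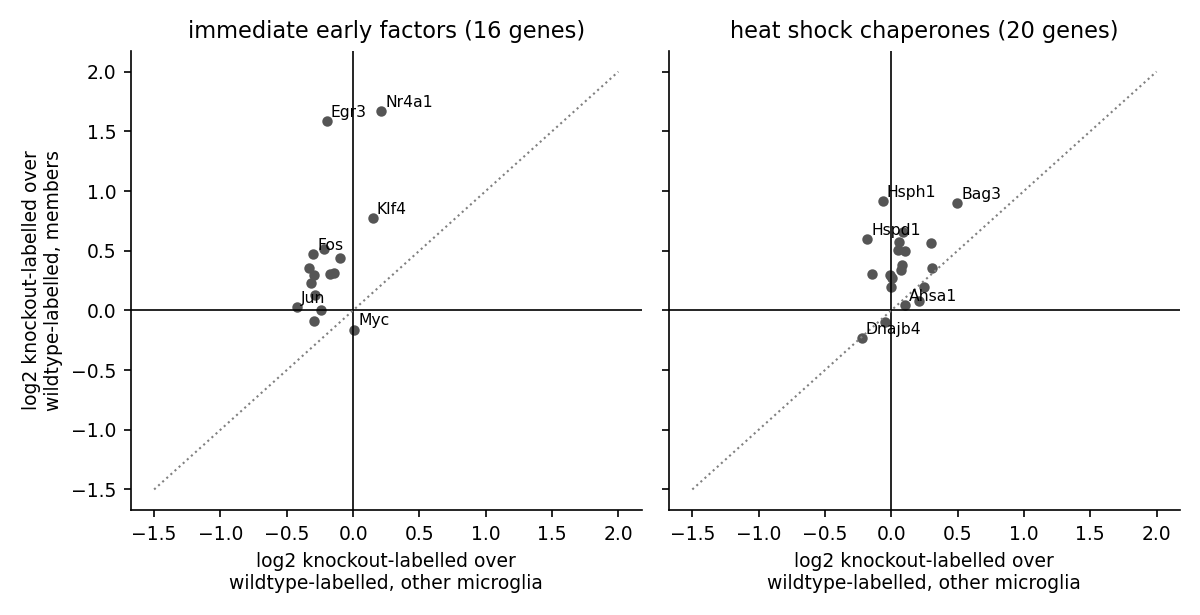
Log2 ratio of knockout-labelled to wildtype-labelled CPM in members (vertical) against the same ratio in other microglia (horizontal), for 16 immediate early and 20 chaperone genes; the dotted line marks equal ratios and some genes are named. Most points lie above the dotted line, Nr4a1 and Egr3 farthest, with 1 cell holding 47.9% of the Egr3 counts under the knockout label.

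Several of the largest differences between the libraries came from few cells. Spp1 stood at 10.8 and 325 CPM and Gpnmb, a lysosomal membrane glycoprotein, at 3.23 and 123 CPM. Cells with at least 3 of Spp1, Gpnmb, Fabp5 and Lgals3 were 1 of 170 and 5 of 108 members, 0.588% and 4.63%, against 0.356% and 0.351% of other microglia. Those 5 members held 221 of 222 Spp1 counts and all 84 Gpnmb counts. Of the 193 Vim counts under the knockout label, 151 came from 1 cell of 26939 counts, the deepest microglial cell of the series, in which P2ry12 had 0 counts and Cx3cr1 2. Gdf15, a stress-induced cytokine, stood at 592 CPM in members labelled wildtype, with 99.1% of counts in 1 cell, and at 123 CPM in those labelled knockout. Cxcr4, a chemokine receptor, rested on more cells, at 4.31 CPM in 2.35% of members and 63.0 CPM in 11.1%.

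Markers of other cell types were also unevenly spread. Clu and Dkk3, both Müller glia markers, had 62 and 51 counts in 2 members labelled wildtype and 0 in those labelled knockout, and Rlbp1 had 17 of its 25 counts in 1 cell of 9952 counts. With Apoe and Vim, which other cells also express, the Müller glia and astrocyte list summed to 7299 and 15500 CPM against 6116 and 10770 CPM in other microglia, with Gfap at 0. Apoe alone gave 5844 of the 6771 counts in members labelled wildtype and 10024 of 10578 in those labelled knockout. These sums therefore mostly follow Apoe and do not show more Müller glia RNA under the knockout label. Of 8 border macrophage markers 5 had counts in the members of each library, summing to 187 and 246 CPM against 138 and 193 CPM in other microglia, with Cd163 and Lyve1 at 0 in both. At least 3 of these markers were found in 7 of 170 and 5 of 108 members. Monocyte markers summed to 24.8 and 30.8 CPM against 14.9 and 35.2 in other microglia, with Vcan, Chil3 and Lyz1 at 0 in members. T and NK cell markers summed to 42.0 and 74.7 CPM against 12.98 and 52.8, with 97.4% and 96.1% of the members' counts in 1 cell. Endothelial and pericyte markers summed to 62.5 and 33.7 CPM against 26.2 and 28.4, and 1 cell held 50% of the 58 counts of members labelled wildtype. B cell markers summed to 22.6 and 17.6 CPM against 63.8 and 73.4, and rod and cone markers to 18.3 and 23.4 CPM against 47.5 and 19.7. Versions were run without cells of Müller glia or border macrophage markers, and the part of the other markers in the members' values was not tested.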

How the data were processed

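The deposited tables hold whole-number counts of unique molecular identifiers (UMIs) per gene and cell, 1 table per library. Cell Ranger 3.1 and mm10 are named in the submitters' processing notes. Cells with at least 500 UMIs, 250 genes and at most 15% mitochondrial counts were kept. The members, gene lists and comparisons were chosen with earlier results of these data known. Counts were summed per library and group of cells and divided by the summed total and multiplied by 1000000 (CPM). Counts are of molecules at 3′ ends, so no length scaling was applied. With 1 sample per group no test was run. A gene was called at 2-fold or more in both libraries (50 CPM in either group of cells), and list genes were counted at 1.5-fold (20 CPM). Intervals are exact (Poisson for levels, Clopper-Pearson for shares and for the split of a gene's counts) at 95% and cover counting error only. A count of 0 was put at a floor of 3 counts, giving a bound, and no ratio was formed where both counts were at or under the floor. Genes named are the rule genes and Igfbpl1, the 15 highest and 12 lowest ratios of members to other microglia, the 10 highest and 10 lowest between libraries (30 counts or more), the 8 highest and 8 lowest against chemokine-high cells, from each list the 3 highest, 2 lowest and most abundant, and from marker lists the 2 most abundant. List genes printed outside that rule, such as Fosb, Junb, Zfp36 and Hspe1, were chosen after their values were seen. Scrublet (scanpy 1.11.5) marked 9 of 4456 cells (0.202%) as doublets, too few for the caller to have worked, so doublets must be assumed to remain. The ratio and rule steps were tested on simulated counts, and 14 planned and 4 added alternatives were run with Python 3.11.15 and scipy 1.17.1. Promoter sequences are from RefSeq (GRCm38.p6).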

Additional observations from a re-analysis of the deposited data

Results flagged for a closer look

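Cst7, which encodes the protease inhibitor cystatin F, ran in opposite directions in the 2 libraries. It stood at 29.1 CPM in members labelled wildtype against 56.1 CPM in other microglia, a ratio of 0.519 (counting interval 0.339 to 0.764), and at 93.8 CPM against 47.0 CPM in the library labelled knockout, a ratio of 1.99 (1.498 to 2.62). It was picked out because the ratios lie on either side of 1 by at least 1.5-fold with intervals that exclude 1. The difference was not tested, since each label has 1 library. A single cell held 51.6% of the Cst7 counts of the members labelled knockout. The 5 members with at least 3 of Spp1, Gpnmb, Fabp5 and Lgals3 held 54 of the 64 counts, so the level under the knockout label came mostly from those 5 cells. Without them Cst7 stood at 16.2 CPM in the members. The 47.0 CPM of other microglia still holds such cells, and a ratio with them left out of both groups was not formed.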

How the results depend on the processing

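Each label has 1 library, and the sources used here do not tie its cells to single mice, so the limits lie in cells and in 1 sample per group. No paired analysis was possible because each group has 1 library and no result comes from a test. Under 14 planned and 4 added alternatives, the last chosen after seeing the data, the median log2 ratios of members to other microglia kept their sign: 0.59 to 1.00 and 1.04 to 1.77 for immediate early factors, 0.32 to 0.78 and 0.60 to 1.01 for chaperones (wildtype, then knockout label). Knockout over wildtype in members they ran from 0.18 to 0.49 and from 0.26 to 0.45. Medians near 0 were less stable: 31 values of 10 other lists changed sign under an alternative, among them antioxidant and iron (-0.11 to 0.26 and -0.10 to 0.45), interferon (-0.69 to 0.19 under the wildtype label), class II (-1.42 to 0.89 and -0.99 to 0.67) and disease-associated genes (-0.20 to 0.04 and -0.06 to 0.39). Of 108 counts of called genes 70 stayed within 1.5 times. In what follows higher and lower counts are for members against other microglia, then against chemokine-high cells, then for knockout over wildtype in members, gene values are log2 ratios, and the cause was not tested. With the top 5% the shares were 2.61% and 4.18%, 48 genes were higher and 1 lower, 3 were lower against chemokine-high cells, 77 and 87 differed by label, and medians were 1.00 (immediate early, wildtype), 0.78 and 1.01 (chaperones). Gdf15 turned to -3.00, -0.30 and 4.35, and Gclm to -0.19 and -0.039 against chemokine-high cells. With the top 20% the shares were 16.3% and 14.6%, 5 genes were higher, 2 were lower against chemokine-high cells, 20 and 6 differed by label, medians under the knockout label were 1.09 and 0.65, and Stmn1 turned to 0.22 between labels. With chemokine-high cells kept the shares were 9.90% and 10.2%, 45 genes were higher, 15 and 2 differed from chemokine-high cells and 19 and 17 by label, and Il1b turned to 1.04 and 1.21 and Mx1 to 0.14 against chemokine-high cells. Without Dnajb1 in the score 2 were lower against chemokine-high cells. With the score on cells thinned to 1000 counts, where ties let in more cells, the shares were 10.7% and 11.1%, 2 genes were higher, 2 were higher against chemokine-high cells, 22 and 9 differed by label, and medians under the knockout label were 1.04 and 0.60, with 0.18 for immediate early factors between labels. There Gdf15 turned to -3.25, -5.67 and 3.39, Lgals3 to -0.98 and -1.64, Cstb to -0.44, Fabp5 to -0.70 and Gclm to -0.036 and -0.46. With at least 5 microglia genes 11 genes were higher and 2 against chemokine-high cells, and Gdf15 turned to -0.75 and -0.93, Lgals3 to -0.55, -0.29 and -0.60, Vim to -0.0043 and -2.38 and Gclm to -0.78. With equal weight per cell 31 genes were higher and 80 by label, the immediate early median under the knockout label was 1.77 and Slc38a9 turned to 0.065. At 100 CPM or more 15 and 7 differed by label, and with no level filter 171 and 71, 96 and 50, and 406 and 542. Without the cell with most counts of each gene, with the level minimum applied again, 8 were higher and 2 lower, 3 were higher against chemokine-high cells and 21 higher by label, and Gdf15 turned to -0.65, -0.15 and 2.44. Totals were kept there, so the step itself tends to lower ratios of members to other microglia. Against microglia in neither top 10% 32 were higher. Without cells with at least 3 of Spp1, Gpnmb, Fabp5 and Lgals3, 2 and 2 differed from chemokine-high cells, and Gdf15 turned to -0.76, -0.92 and 4.37, Gclm to -0.20, Ms4a7 to -0.033, Spp1 to -4.55 and -2.76 and Cst7 to -0.76. That removal itself takes out nearly all Spp1 counts of members labelled knockout. Without cells with Müller glia markers Mgarp turned to 0.83 between labels.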

Other observations

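Energy metabolism differed little between members and other microglia. Of 18 nuclear genes of oxidative phosphorylation 0 were 1.5-fold higher or lower in either library, with median log2 ratios of -0.08 and -0.20, and the 12 mitochondrially encoded genes had medians of 0.07 and 0.08. Glycolysis and hypoxia genes had medians of 0.13 and 0.36, with 1 and 3 of 14 at least 1.5-fold higher, against 4.6% and 8.07% of all genes, and the median under the knockout label was -0.02 with at least 5 microglia genes required. The list of disease-associated genes had 1 of 17 genes at least 1.5-fold higher in the library labelled wildtype and 7 of 21 in the library labelled knockout, where the 5 members with Spp1 program genes lie. The shares over all genes are the same 4.6% and 8.07%, and without such cells the median under the knockout label went from 0.27 to -0.06. Axl, a receptor for apoptotic cell uptake that did not rest on 1 cell, stood at 52.8 and 119 CPM in members against 50.4 and 65.6 CPM in other microglia.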
